A study of Oryza sativa and Oryza rufipogon with 8 samples.

Results

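Among the genes measured in rice roots by RNAseq, 6 *O. sativa* genes tie mitochondria to iron (Fe) or to the electron transport chain: the mitochondrial Fe transporter gene *MIT* (OS03G0296800), the mitochondrial iron-regulated gene *MIR* (OS12G0282000), the formate dehydrogenase gene *FDH* (OS06G0486800), the mitochondrial chaperone gene *BCS1* (OS01G0605100), and the alternative oxidase genes *AOX1a* (OS04G0600200) and *AOX1b* (OS04G0600300). They were chosen by name and identifier, with no threshold on their values but with earlier results of these data known. They are 6 of 35679 *O. sativa* genes in the files. *FDH* and *BCS1* each have an *O. rufipogon* partner (ORUFI06G16260 and ORUFI01G24790), 2 of 37071 genes of that species, and no partner was used for the other 4 genes. Both partners come from the pairs of genes that the study listed as regulated in both species on these same samples. The direction of *FDH* and *BCS1* in these libraries of either species is therefore a description rather than independent evidence. The study also measured *BCS1* by RT-qPCR in roots of both species and reported it as differentially expressed in both. Those RT-qPCR values are not part of the data used here.

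The study asked how roots of cultivated rice, *O. sativa* cv Nipponbare, and of its wild progenitor *O. rufipogon*, here 1 accession held by EMBRAPA Rice & Beans, respond to Fe deficiency. There were 4 groups of 2 libraries: *O. rufipogon* −Fe, *O. rufipogon* CC, *O. sativa* −Fe and *O. sativa* CC. Plants of all groups had the same culture: germination and growth in vermiculite with distilled water, then acclimation in non-aerated nutrient solution with Fe-EDTA until treatment began. The −Fe plants then had no Fe added for 5 days and the CC plants, the control condition, had 100 µM Fe-EDTA for 5 days. Roots were harvested at the three-leaf stage. Each library was made from pooled material, given in the series description as roots of 3 plants per replicate and in the study's methods as RNA of 3 biological replicates per library, and which of these holds is not settled. In either case differences among single plants are not seen, and p values measure the spread between these libraries only. The tables of each species hold that species' own gene identifiers, although the submitters' notes name the genome build IRGSP-1.0 for all 8 libraries.

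Mitochondria are a main sink for Fe in plant cells, since haem and Fe-S clusters are built into the complexes of the respiratory chain. MIT carries Fe into rice mitochondria, and *MIR* is a rice gene named for its response to Fe and for its mitochondrial product. FDH oxidizes formate to CO2 with NAD as the acceptor, and its transcript is known to accumulate in Fe-deficient barley roots. In yeast, where it is known best, BCS1 is an AAA ATPase that helps insert the Rieske Fe-S protein into complex III. The study annotated the rice gene as BCS1 protein-like, and its function was not tested here. Alternative oxidase is a di-iron enzyme that passes electrons from ubiquinol straight to oxygen and so bypasses the cytochrome pathway.

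The libraries held 14758304 to 18857150 estimated counts in *O. rufipogon* and 22911261 to 25312301 in *O. sativa*. A level of 3 counts, the most that a count of 0 allows, was 0.159 to 0.201 CPM (counts-per-million) in *O. rufipogon* and 0.122 to 0.130 CPM in *O. sativa*. Such limits cover counting error only. All 4 root genes checked in *O. sativa*, *Lsi1*, *Lsi2*, *NRAMP5* and *IRT1*, were detected, and their summed level was 1945 and 2377 CPM under −Fe, against 4181 and 3082 CPM under CC. All 4 leaf genes checked, *RBCS2*, rubisco activase, *CAB2R* and PSI subunit II, were also detected, at a summed 165 and 59.8 CPM under −Fe, against 90.6 and 132 CPM under CC. The leaf sums overlapped between treatments, and the root sums did not. The root genes did not move together: the silicon transport genes *Lsi1* and *Lsi2* fell by 1.45 and 1.16 on the log2 scale (edgeR adjusted p = 0.00368 and 0.0273), the Fe transporter gene *IRT1* rose by 1.98 (edgeR adjusted p = 0.000162), and *NRAMP5* stood at 0.59 and did not pass (edgeR adjusted p = 0.106). The part of these shifts in the results was not tested. In RNA from whole roots, a change in the number of cells of a type and a change in RNA per cell cannot be told apart.

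Of the 6 mitochondrial genes, *MIR*, *FDH* and *BCS1* rose under −Fe, *MIT* and *AOX1a* did not pass the test, and *AOX1b* had too few counts to be tested. Tests were made with the edgeR quasi-likelihood test on counts, with libraries scaled by TMM factors as in the CPM, and adjusted over 25767 genes, and a gene was called at a false discovery rate (FDR) of 0.05. Of the 6 genes, 5 had enough counts to be tested, 3 were up-regulated, 0 were down-regulated and 2 were not called. Over all tested *O. sativa* genes, 2.98% were called higher under −Fe and 3.66% lower, 6.63% in either direction. *FDH* and *BCS1* were already on the study's list of rising genes, made on these samples, so the members are no independent draw against these shares. At an unadjusted p under 0.05 there were 5221 such genes, and the median log2 fold change of all genes was −0.01. With 2 libraries a group, an exact permutation test of one gene cannot give a two-sided p below 0.333, so each call rests on the spread that edgeR estimated across genes.

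**Figure D1:**
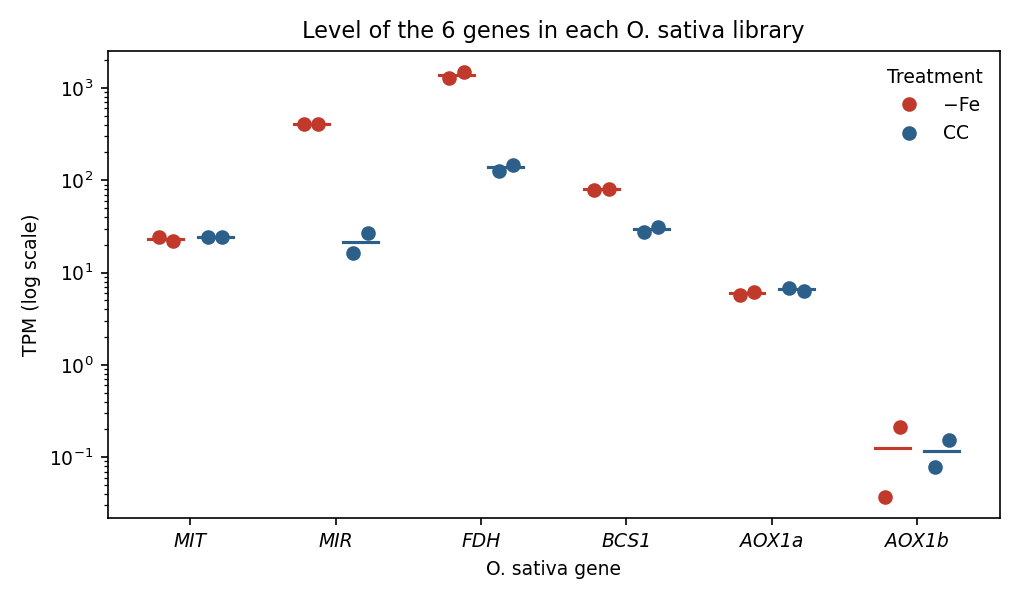
Level of the 6 genes in each *O. sativa* library in TPM (transcripts-per-million, which corrects for transcript length), on a log axis, with points for the libraries, −Fe in red and CC in blue, and short lines for the means of 2. *MIR*, *FDH* and *BCS1* sat higher under −Fe, at 406 and 408, 1291 and 1490, and 79.4 and 81.4 TPM, while *MIT*, *AOX1a* and *AOX1b* had −Fe points beside or overlapping their CC points.

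*MIT*, which carries Fe across the mitochondrial inner membrane, was not distinguishable between treatments. It held 721 and 694 counts under −Fe, against 696 and 692 counts under CC. Scaled for depth, these were 29.7 and 28.2 CPM under −Fe and 29.8 and 29.97 CPM under CC. Both −Fe values lay below both CC values, as happened in one direction or the other for 51.6% of all genes tested, so the separation is not particular to *MIT*. The means were 28.9 ± 1.02 CPM under −Fe and 29.9 ± 0.0979 CPM under CC (SD, n = 2 each). The log2 fold change was −0.05 with a standard error of 0.0923, and the edgeR adjusted p was 0.841. The 95% interval of the fold ran from 0.837 to 1.12, so rises of more than 1.12-fold lie outside it.

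*MIT* is the only one of the 6 with more than 1 transcript in the files. Its shorter transcript (1364 nt) held 81.6 and 83.6% of the gene's counts under −Fe, against 82.0 and 81.2% under CC. Over all *O. sativa* transcripts tested, of which 3.39% were called, neither passed: on the log2 scale the longer one (2890 nt) differed by −0.13 (edgeR adjusted p = 0.807) and the shorter one by −0.03 (edgeR adjusted p = 0.905). The estimates of the transcripts were not whole numbers, because reads that both contain were divided between them, while their sum was whole in every library.

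*MIR* had the largest fold change of the 5 tested genes. It has a single transcript of 1056 nt on chromosome 12, and all of its estimates were whole counts. It held 8367 and 8935 counts under −Fe, against 323 and 537 counts under CC. This gave 344 and 363 CPM under −Fe, against 13.8 and 23.3 CPM under CC. The lower −Fe library was 14.8 times the higher CC library, whereas 24.5% of all tested genes had both −Fe libraries above both CC libraries by any margin. The means were 354 ± 13.4 CPM under −Fe and 18.6 ± 6.66 CPM under CC (SD, n = 2 each), a log2 fold change of 4.25 ± 0.282 (SE) or 19.1-fold with a 95% interval of 11.0 to 33.1 (edgeR adjusted p = 0.00612).

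The CC libraries differed more for *MIR* than for the other called genes. The second CC library held 1.68 times the *MIR* level of the first, against 1.06 times between the −Fe libraries, and the CC ratio was 1.01 for *MIT*, 1.18 for *FDH* and 1.16 for *BCS1*. By TPM, *MIR* ranked 348 and 353 among *O. sativa* genes under −Fe, against 9548 and 6882 under CC. Of 19280 genes whose counts averaged 50 or more, it was the 27th largest rise.

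*MIR* and *MIT* stood at similar levels in CC roots and far apart in −Fe roots. Per length, in TPM, the ratio of *MIR* to *MIT* was 16.7 and 18.4 under −Fe, against 0.668 and 1.12 under CC. *MIT* itself was at 24.2 and 22.3 TPM under −Fe, against 24.5 and 24.1 TPM under CC, so the shift in the ratio followed *MIR*.

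*FDH*, the enzyme gene for formate oxidation, was the most abundant of the 6 in every *O. sativa* library. It held 41985 and 51382 counts under −Fe, which was 0.174 and 0.203% of all counts in those libraries, against 0.0174 and 0.0201% under CC. By TPM it was the 49th and 41st most abundant gene in the −Fe libraries, against ranks 1495 and 1301 in the CC libraries. A single transcript thus moved into the 50 most abundant genes of the −Fe root.

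In CPM, *FDH* was at 1727 and 2089 under −Fe, against 170 and 201 under CC. The lower −Fe library was 8.60 times the higher CC library. The log2 fold change was 3.36 ± 0.139 (SE), a 10.3-fold rise with a 95% interval of 8.25 to 12.8 (edgeR adjusted p = 2.87e-06). It was the 66th largest rise of the 19280 genes, behind *MIR*, although its interval and that of *MIR* overlap between 11.0 and 12.8-fold, and the difference between these genes was not tested.

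*BCS1*, named by the study as a mitochondrial chaperone gene, rose less and with a narrow spread. It had 107 and 115 CPM under −Fe, against 37.4 and 43.3 CPM under CC. The means were 111 ± 5.65 CPM under −Fe and 40.3 ± 4.14 CPM under CC (SD, n = 2 each). The lower −Fe library was 2.48 times the higher CC library. The log2 fold change was 1.46 ± 0.0928 (SE), 2.76-fold with a 95% interval of 2.39 to 3.19 (edgeR adjusted p = 2.95e-05), and it was the 240th largest rise.

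The *BCS1* estimates were not whole numbers in any *O. sativa* library. They were 2609.72 and 2837.58 counts under −Fe, against 872.885 and 998.895 counts under CC, so some reads were divided with another sequence. How many reads were shared cannot be read from these fractions, and the *BCS1* values are uncertain for that reason.

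The proportions among the induced genes also differed between treatments. Per length, in TPM, *FDH* was 16.3 and 18.3 times *BCS1* under −Fe, against 4.61 and 4.69 times under CC. *FDH* was 3.18 and 3.65 times *MIR* under −Fe, against 7.81 and 5.48 times under CC. *FDH* thus led both genes in all 4 libraries, by more over *BCS1* and by less over *MIR* in −Fe roots.

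**Figure D2:**
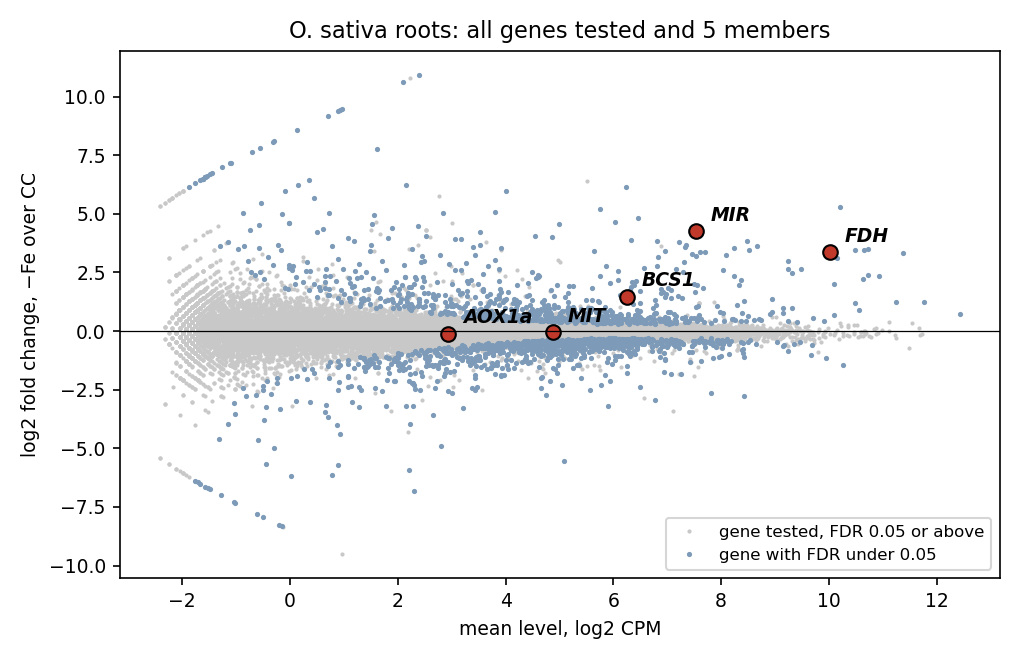
Log2 fold change of −Fe over CC against mean log2 CPM for every tested *O. sativa* gene, grey for genes that did not pass and blue for genes that passed an FDR of 0.05. The 5 tested members are marked in red: *MIR* at 4.25, *FDH* at 3.36 and *BCS1* at 1.46 stand above the bulk of genes of their level, and *MIT* at −0.05 and *AOX1a* at −0.12 lie on the zero line.

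The alternative oxidase genes were at low level in these roots, and neither was called. *AOX1a*, a single transcript of 1471 nt, had 6.79 and 7.72 CPM under −Fe, against 8.10 and 7.67 CPM under CC. The treatments overlapped, since the second −Fe library lay between the CC libraries. The means were 7.25 ± 0.660 CPM under −Fe and 7.88 ± 0.308 CPM under CC (SD, n = 2 each), a log2 fold change of −0.12 ± 0.166 (SE; edgeR adjusted p = 0.762). The 95% interval of the fold was 0.709 to 1.20, so a change of the size seen for *BCS1* lies outside it and a small one in either direction does not. One *AOX1a* estimate, 189.918 counts in the second −Fe library, was 0.082 of a read from a whole number.

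*AOX1b*, whose identifier follows that of *AOX1a* on chromosome 4, was barely detected. It had 1 and 6 counts under −Fe, against 2.01 and 4 counts under CC. It did not reach 5 counts in 2 libraries and was not tested. Summed over libraries, 7 counts under −Fe stood against 6 under CC, a depth-scaled ratio of 1.11 with an exact interval of 0.319 to 3.99 that covers counting error only. A change of several-fold was therefore not detectable at this depth. Per length, *AOX1a* was 152 and 29.2 times *AOX1b* under −Fe, against 86.7 and 40.8 times under CC, so *AOX1a* made up nearly all of the reads of this pair in each library.

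In *O. rufipogon*, the partners of *FDH* and *BCS1* were both higher under −Fe. Of 21081 genes tested there, 11.9% were called higher and 4.15% lower, 16.0% in either direction. The partner of *FDH* had 1121 and 828 CPM under −Fe, against 151 and 164 CPM under CC, with both −Fe libraries at least 5.06 times the higher CC library. Its log2 fold change was 2.63 ± 0.177 (SE), 6.20-fold with a 95% interval of 4.59 to 8.36 (edgeR adjusted p = 0.00158), and it was the 218th largest rise of 15457 genes whose counts averaged 50 or more.

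The partner of *BCS1* showed a smaller difference. It had 69.3 and 62.0 CPM under −Fe, against 47.3 and 40.9 CPM under CC. The lower −Fe library was 1.31 times the higher CC library, and 34.9% of all *O. rufipogon* genes tested had both −Fe libraries above both CC libraries. The log2 fold change was 0.57 ± 0.133 (SE), 1.49-fold with a 95% interval of 1.19 to 1.86 (edgeR adjusted p = 0.0382). This call was lost without −Fe library 1 (0.51, adjusted p = 0.406) or −Fe library 2 (0.67, adjusted p = 0.234), with TPM in place of counts (0.43, adjusted p = 0.0796), and when its transcript was adjusted over all *O. rufipogon* transcripts (0.58, adjusted p = 0.0981), of which 3.61% were called. It was the 2217th largest rise, and its estimates were not whole in 3 of 4 libraries.

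**Figure D3:**
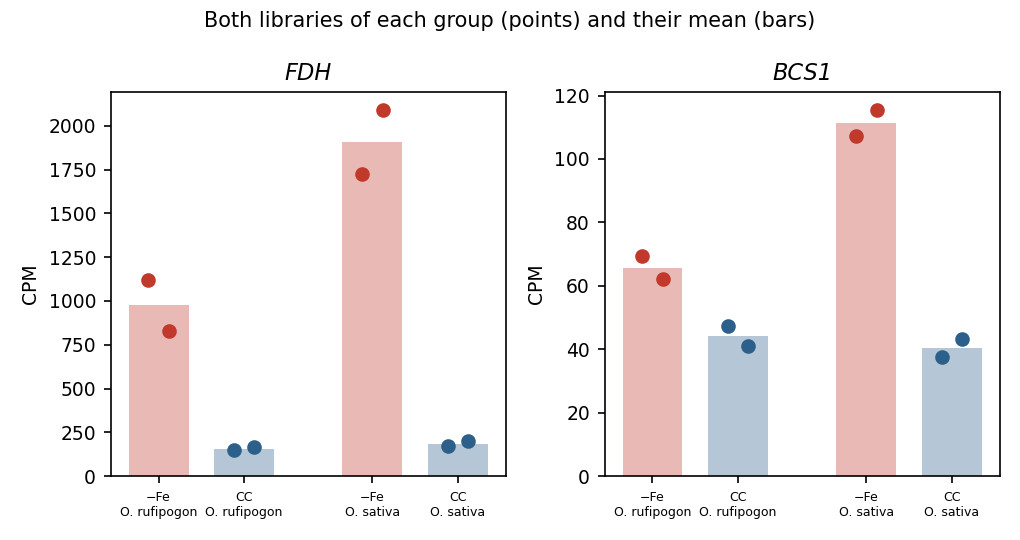
CPM of *FDH* (left) and *BCS1* (right) in both species, with bars for the mean of 2 libraries and points for the libraries, −Fe in red and CC in blue. The CC bars are of similar height in both species, at 157 CPM in *O. rufipogon* and 186 CPM in *O. sativa* for *FDH*, and 44.1 CPM in *O. rufipogon* and 40.3 CPM in *O. sativa* for *BCS1*, while the −Fe bars are shorter in *O. rufipogon*, at 974 CPM against 1908 CPM in *O. sativa* for *FDH* and at 65.7 CPM against 111 CPM for *BCS1*.

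Whether the response differed between the species was tested as an interaction over 102 gene pairs that the study listed as regulated in both. The log2 response of *FDH* in *O. rufipogon* minus that in *O. sativa* was −0.73 ± 0.262 (SE; 95% interval −1.30 to −0.16; edgeR adjusted p = 0.0449), so that the *O. rufipogon* fold was 0.603 times the *O. sativa* fold. For *BCS1* the difference was −0.89 ± 0.183 (SE; 95% interval −1.29 to −0.49; edgeR adjusted p = 0.00223), a ratio of folds of 0.539. Of the 102 pairs, 35.3% passed in either direction and 12.7% with a negative difference. These shares include pairs listed as falling, for which a negative difference means a larger fall in *O. rufipogon* rather than a smaller rise.

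The *FDH* difference was the less stable one. Its call was lost without *O. rufipogon* −Fe 2 (adjusted p = 0.159) or CC 2 (0.0912), and without *O. sativa* −Fe 2 (0.139), CC 1 (0.175) or CC 2 (0.0683), with differences from −0.96 to −0.53 over all leave-one-out fits. The *BCS1* difference kept its call in each of its 13 alternatives, from −0.999 to −0.784. Among these, the fit with no filter on low counts only repeated the main fit. The interaction was not fitted on TPM or on single transcripts. Within the 57 pairs listed as rising in both species, *FDH* was 30th by log2 fold change in *O. rufipogon*, where the median of the list was 2.65, and 15th in *O. sativa*, where it was 2.48. *BCS1* was 55th in *O. rufipogon* and 45th in *O. sativa*, near the low end in both.

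**Figure D4:**
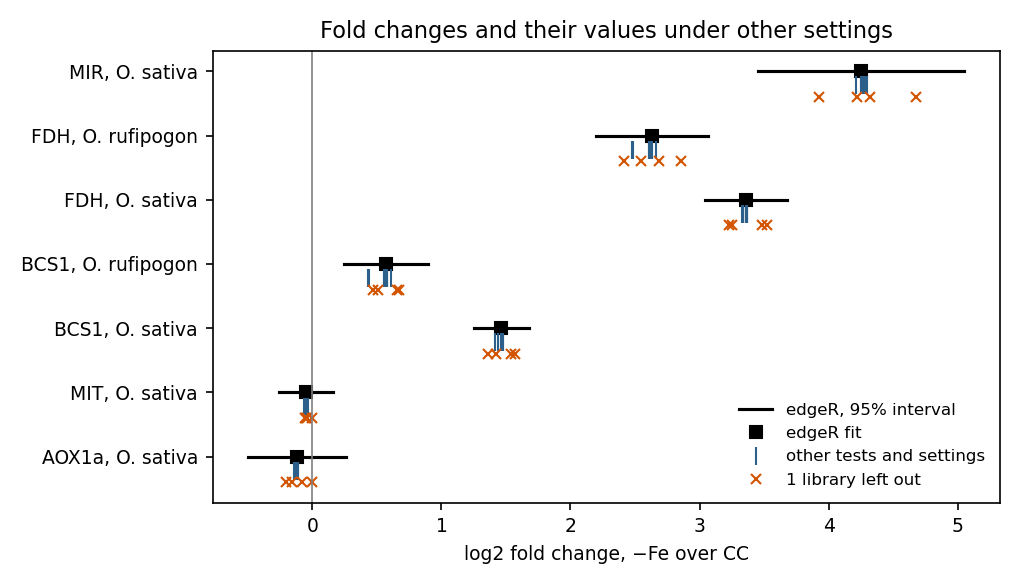
Log2 fold change of −Fe over CC for the tested members and partners, with black squares for the edgeR fit and lines for its 95% interval, blue ticks for other tests and settings, and orange crosses for fits that leave out 1 library. Of the genes shown, *MIR* moves most when a library is left out, from 3.93 to 4.67, *BCS1* in *O. rufipogon* lies between 0.43 and 0.67, and *MIT* and *AOX1a* stay at or just below 0.

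A further 4 genes had been set beside the 6 by identifier, of which 3 were tested in *O. sativa*, 0 rose and 2 fell, against 6.63% of all genes called. Both that fell were taken from the study's list of shared down-regulated genes, which was made on these samples and is no independent evidence of direction. The gene for pyruvate dehydrogenase E1 beta (OS08G0536000), which feeds carbon into the citric acid cycle, had 136 and 139 CPM under −Fe, against 218 and 215 CPM under CC (log2 fold change −0.65 ± 0.0753, SE; edgeR adjusted p = 0.00104). Like those of *BCS1*, its estimates were not whole numbers in any *O. sativa* library, so its values carry the same uncertainty. The estimates of its *O. rufipogon* partner were not whole in −Fe 2, CC 1 and CC 2. Adenylate kinase 7 (OS08G0118900), annotated by the study as mitochondrial, had 13.7 and 12.7 CPM under −Fe, against 24.0 and 27.0 CPM under CC (−0.95 ± 0.118, SE; edgeR adjusted p = 0.00152). The other 2 genes of the list, on chromosome 2, had been put on it as further alternative oxidases. No description of them was at hand to check this, so they are given by identifier only, and neither was called. OS02G0318100 had at most 5 counts in any library (−1.34, edgeR adjusted p = 0.499), and OS02G0700400 was not tested. The *O. rufipogon* partners of the 2 genes that fell were also lower, at −0.72 for pyruvate dehydrogenase (edgeR adjusted p = 0.0168) and −0.62 for adenylate kinase (edgeR adjusted p = 0.0317), and both calls were lost when a −Fe library was left out and when single transcripts were tested. The pyruvate dehydrogenase partner stood at −0.60 without −Fe 1 (edgeR adjusted p = 0.305), −0.82 without −Fe 2 (0.157) and −0.72 as a single transcript (0.069). The adenylate kinase partner stood at −0.51 without −Fe 1 (edgeR adjusted p = 0.418), −0.70 without −Fe 2 (0.241) and −0.62 as a single transcript (0.0877).

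The genes whose pattern over the 4 *O. sativa* libraries was nearest to each induced member were found among 19281 genes by the root mean square distance of centred log2 CPM. Closest to *FDH* were OS11G0484000 (distance 0.0408), a methylthioribulose-1-phosphate dehydratase and enolase-phosphatase gene of methionine salvage, and the nicotianamine synthase gene *NAS1* (OS03G0307300, 0.0468). OS11G0484000 had 4573 and 5141 CPM under −Fe, against 445 and 525 CPM under CC, and *NAS1* had 2597 and 3273 CPM under −Fe, against 244 and 298 CPM under CC. Both were thus more abundant than *FDH* and kept nearly the same proportion to it in each library.

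Closest to *MIR* were OS06G0628032 (distance 0.123), at 4.56 and 5.98 CPM under −Fe, against 0.134 and 0.312 CPM under CC, and OS03G0725200 (0.124), at 22.3 and 21.0 CPM under −Fe, against 0.943 and 1.39 CPM under CC. Both distances were larger than those for *FDH*. Closest to *BCS1* were OS11G0117900 (0.0479), at 19.8 and 22.7 CPM under −Fe, against 7.41 and 8.61 CPM under CC, and OS03G0160400 (0.0501), at 30.4 and 31.7 CPM under −Fe, against 10.8 and 11.4 CPM under CC. These distances describe 4 libraries of 2 treatments, which any gene with a similar fold change would share in large part.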

How the data were processed

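Reads of 50 nt were filtered by the authors at PHRED 30 and trimmed of adapters and of their first 12 nt, and they estimated transcript abundance with Kallisto, whose version is not given in the sources used here. The submitters' processing notes also name FastQC and, for both species, IRGSP-1.0, while the *O. rufipogon* tables hold identifiers of that species. The deposited tables hold, per the file headers, estimated counts, TPM, transcript length and effective length.

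From the deposited estimated counts, summed per gene and rounded, genes reaching 5 counts in 2 or more of a species' 4 libraries entered edgeR 4.0.16 (robust quasi-likelihood test, TMM factors, Benjamini-Hochberg adjustment) in R 4.3.3. Estimates within 0.05 of a whole number were treated as whole. The deposited TPM gave levels per length and ranks. The interaction was fitted on 102 pairs with all 8 libraries. Alternatives used DESeq2 1.42.0, limma 3.58.1, other filters and scalings, single transcripts, a replicate block and leaving out each library. The text names the 6 genes, their partners, the list and, for each induced member, the 2 nearest genes. The members and lists were chosen with earlier results of these data known. Replicate numbers come from the sample titles, and nothing states that they mark a shared batch. Lists by gene description, promoter motifs and sequences were not used here. The edgeR fits were also run on simulated data with known fold changes, drawn with the same spread for all genes and both treatments. Replicates of *O. rufipogon* differed more under CC than under −Fe, so this simulation cannot show how well calls in that species hold.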

Additional observations from a re-analysis of the deposited data

Results flagged for a closer look

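For the 2 genes with an *O. rufipogon* partner, the response to −Fe differed between the species by the interaction test over 102 pairs. The *FDH* response on the log2 scale, *O. rufipogon* minus *O. sativa*, was −0.73 (edgeR adjusted p = 0.0449), and that of *BCS1* was −0.891 (edgeR adjusted p = 0.00223). Of all 102 pairs, 35.3% passed in either direction and 12.7% with a negative difference. The *FDH* call was lost when some single libraries were left out, while the *BCS1* call was kept. The tables of the species hold different transcripts, and the part of this in the differences was not tested.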

How the results depend on the processing

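In *O. sativa*, *MIR*, *FDH* and *BCS1* kept their calls and *MIT* and *AOX1a* stayed uncalled under all 14 alternatives, so 3 of the members and 2 of the list were called each time. The *O. rufipogon* partners called were 1 rather than 2 with limma on TPM (pseudocount 1 or 0.1) and with single transcripts, and 1 to 2 when a library was left out. With log2 of TPM + 0.1 the median of all *O. rufipogon* genes was −0.11, and *BCS1* stood 0.55 above it. The interaction called 1 to 2 of these pairs when a library was left out. Of all *O. sativa* genes, 767 were higher and 942 lower, against 418 and 416 with single transcripts, and 328 to 489 higher and 285 to 717 lower when a library was left out. Of all *O. rufipogon* genes, 2504 were higher and 874 lower. The higher count was 676 with single transcripts. The lower count was 1313 with DESeq2, 577 with at least 10 counts in every library, 1546 and 1391 with TPM + 1 and TPM + 0.1, and 96 with single transcripts. Leaving out an *O. rufipogon* library gave 109 to 4961 higher and 3 to 4643 lower, with 109 and 353 higher without −Fe 1 and −Fe 2, and 4961 and 3955 without CC 1 and CC 2, so the background percentages of that species depend on each library. The causes were not tested. With a replicate block, 701 *O. sativa* genes were higher and 1016 lower, 2467 and 1022 in *O. rufipogon*, and no call of a member, partner or interaction changed. Deviations of same-numbered libraries correlated at 0.0483 in *O. rufipogon* and −0.106 in *O. sativa*, so the numbers were not taken to pair libraries. A crossed pairing in *O. sativa*, chosen after seeing the data, gave 917 higher and 1119 lower. Depth limits *AOX1b*, which stood at 0.14 on the log2 scale with no filter (edgeR adjusted p = 0.98).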
